A study of Homo sapiens with 24 samples.

Results

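The mRNA response of A549 cells at 24 h was described for the genes with at least 5 RPKM in either of 2 libraries. RPKM counts the reads of a gene relative to the length of its model and to all mapped reads of that library. One library came from cells kept for 24 h in CAF conditioned medium, and the other from cells kept for 24 h in control medium. A549 is an established human lung carcinoma line, and CAF is the usual short form of cancer-associated fibroblast, which the labels give only as the abbreviation. The wider study sampled both media at 3, 6, 12, 24, 48 and 72 h for mRNA and for small RNA, and its title concerns markers of the epithelial-mesenchymal transition. Its design text speaks of 2 biological replicates, but the mRNA table holds 1 library per medium and time, so no test was made and sizes are described only. The rule kept 8153 of 22026 genes. Of these, 7296 reached 5 RPKM in both libraries, 522 in CAF medium only and 335 in control medium only. RPUSD1 lay just inside the limit, with 5 RPKM in CAF medium and 4.3 RPKM in control medium. AK056618 lay just outside it, with 4.99 RPKM in CAF medium and 3.41 RPKM in control medium.

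Fibroblasts of a tumour release growth factors, cytokines, matrix proteins and metabolites, and the medium they leave behind carries these to carcinoma cells without cell contact. Epithelial cells that go through an epithelial-mesenchymal transition lose junction proteins such as E-cadherin and gain motility, under transcription factors such as SNAI2 and ZEB1. Cells that divide transcribe the genes of DNA replication ahead of S phase, through E2F factors, and those of mitosis in G2, through complexes that bind CHR and CCAAT elements.

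The 2 libraries were of similar depth. The smallest steps between RPKM values gave 33.9 M reads for CAF medium and 37.1 M reads for control medium, within 23.9 to 40.6 M over the 12 mRNA libraries. The labelled cell type was checked against its markers. KRT8 and KRT18, the keratins of simple epithelium, had 1935 and 1031 RPKM in CAF medium and 1848 and 784 RPKM in control medium. Of the 12 lung epithelial markers measured, 6 were under 1 RPKM in both media. NKX2-1, a factor of differentiated lung cells, had 0.02 RPKM in CAF medium and 0 RPKM in control medium, and the surfactant gene SFTPB had 0 RPKM in either. ABCA3, a lipid carrier of alveolar cells, had 7.97 RPKM in CAF medium and 6.84 RPKM in control medium. Of 10 fibroblast markers none reached 5 RPKM, and their summed level was 11.9 RPKM in CAF medium and 6.87 RPKM in control medium. COL1A2, which fibroblasts make in large amounts, was at 0.02 RPKM in CAF medium and 0.01 RPKM in control medium. The 10 immune and endothelial markers summed to 20.9 RPKM in CAF medium and 20.4 RPKM in control medium, nearly all of it CD68.

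The 24 h CAF library stood close to a control library of another time. Over the 66 pairs that the 12 mRNA libraries form, 7484 genes of at least 400 bases and a mean of at least 5 RPKM were compared. The closest pair, with 5 genes at least 2-fold apart and an interquartile range of the log2 difference of 0.20, was CAF medium at 24 h and control medium at 48 h. CAF medium at 24 h and control medium at 24 h differed at least 2-fold in 178 genes, with an interquartile range of 0.43, and ranked 25 of 66. The next control libraries lay farther away, with 50 genes for 72 h and 297 genes for 12 h. Within CAF medium the 24 h library differed in 65 genes from 6 h, 304 genes from 12 h and 282 genes from 48 h. With 1 library per medium and time, an effect of the medium, a shift in time and a mix-up of libraries cannot be told apart. Values against the 12 h and 48 h control libraries are therefore given beside those against the 24 h control for many of the lists and genes.

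**Figure D1:**
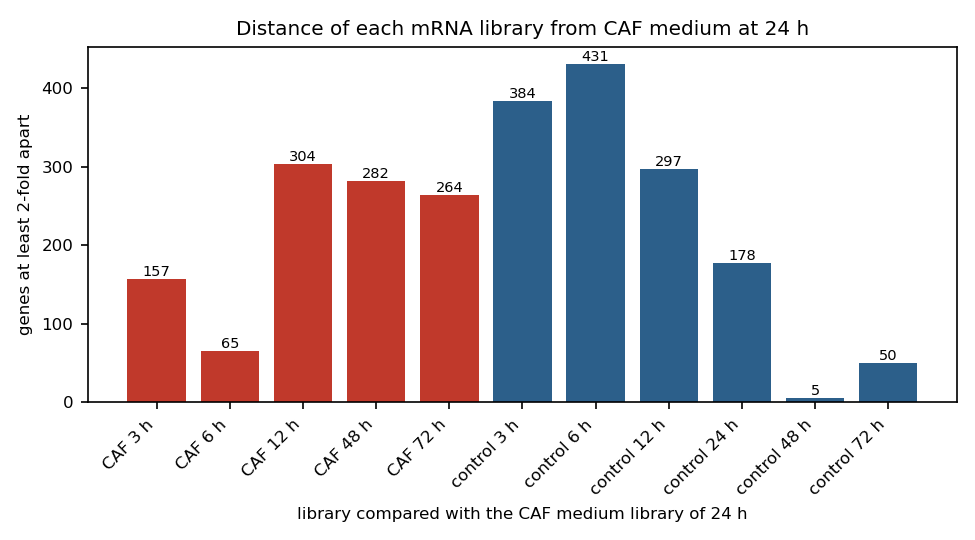
Number of genes at least 2-fold apart (vertical axis) between the CAF medium library of 24 h and each of the other 11 mRNA libraries (horizontal axis), CAF medium in red and control medium in blue, over 7484 genes. The bar of control medium at 48 h, 5 genes, is the lowest, and that of control medium at 24 h has 178 genes.

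Of the 8153 genes, 175 (2.15%) were at least 2-fold higher in CAF medium and 64 (0.785%) at least 2-fold lower, on the scale log2(RPKM + 0.5). The median difference over all 8153 genes was 0.01, the middle 90% lay between -0.58 and 0.72, and 51.5% of the genes were higher and 48.4% lower in CAF medium. The higher genes were mostly low in control cells: their median level was 9.58 RPKM in CAF medium and 3.3 RPKM in control medium, and 113 of the 175 reached 5 RPKM only in CAF medium. The 64 lower genes had a median of 8.01 RPKM in CAF medium and 17.4 RPKM in control medium, and 16 of them reached 5 RPKM only in control medium. A 95% interval for counting error of the reads excluded equal levels for 174 of the 175 and for 64 of the 64. These genes were picked by size from the same reads, so that outcome was nearly fixed in advance. Small differences also passed, such as KRT8 with a log2 difference of 0.07 and an interval of 0.06 to 0.08. Those intervals cover the counting of reads only, not the spread between cultures. At a 1.5-fold limit, chosen after the data were seen, 647 genes were higher (7.94%) and 394 lower (4.83%).

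Against the 12 h control library the same CAF library had 313 genes at least 2-fold higher (3.91%) and 79 lower (0.987%) of 8006. Against the 48 h control library it had 5 higher (0.0630%) and 7 lower (0.0882%) of 7935. Of the 175 higher genes, 139 were also at least 2-fold above the 12 h control and 2 above the 48 h control. Of the 64 lower genes, 25 were also at least 2-fold below the 12 h control and 2 below the 48 h control. In CAF medium at 24 h, 171 of the 175 lay above each of the 4 control libraries of 3 to 24 h, and 64 of the 64 lay below each of them. These 4 include the 24 h control that picked the genes, so that part was fixed by the rule. By at least 2-fold, 119 of the 175 and 23 of the 64 lay beyond all 4. Of the 175, 77 lay within the range of the 48 and 72 h controls, 74 above both and 24 below both. Of the 64, 41 lay within that range, 12 above both and 11 below both. The share over all genes was not counted for any of these. These comparisons share the CAF library and are given as a description.

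**Figure D2:**
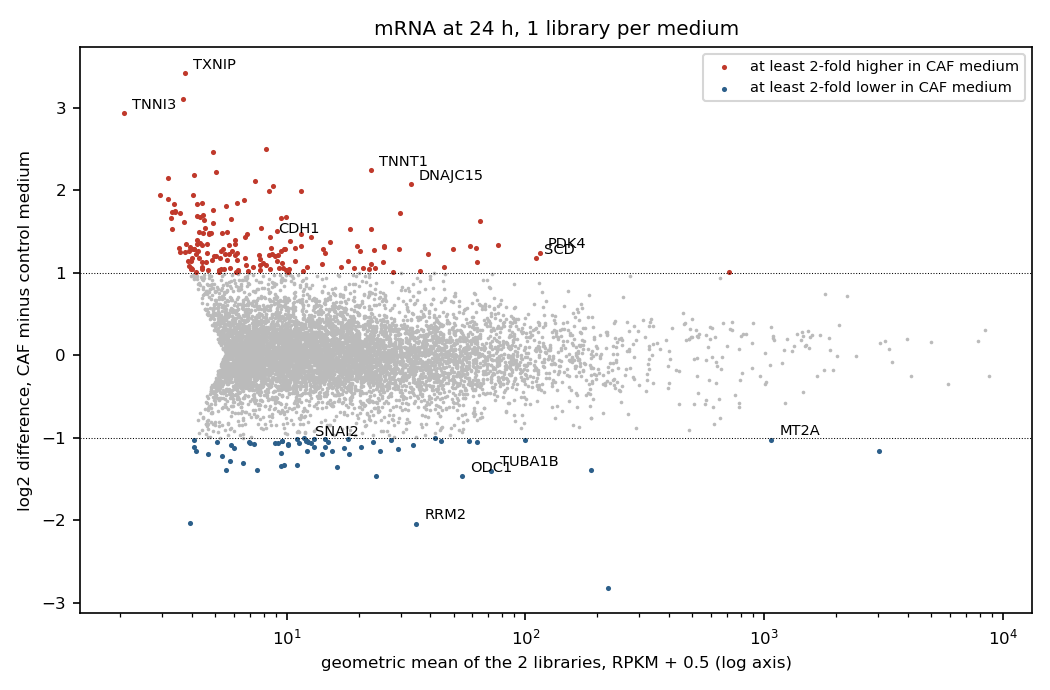
Log2 difference at 24 h, CAF minus control medium (vertical axis), against the geometric mean of both levels in RPKM + 0.5 (horizontal log axis) for 8153 genes, with the 175 genes at least 2-fold higher in red and the 64 at least 2-fold lower in blue. The red points sit mostly at low levels, and TXNIP is the highest and RRM2 the lowest of the labelled genes.

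The gene with the largest positive difference was TXNIP, which encodes an arrestin-like protein that binds thioredoxin and limits glucose uptake. It had 11.8 RPKM in CAF medium and 0.64 RPKM in control medium, 18.4-fold apart with a counting interval of 14.6 to 23.6. It had 0.32 RPKM in control medium at 12 h and 6.81 RPKM in control medium at 48 h, so the 24 h CAF level was above each of these controls. TXNIP was higher in CAF medium at 5 of the 5 other times, and its levels at 48 h were 56.1 RPKM in CAF medium and 6.81 RPKM in control medium.

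Among the 15 genes with the largest positive differences were TNNI3, TNNT1, ADSSL1 and CKB, set together here after their values were seen. TNNI3, the cardiac form of troponin I, had 5.25 RPKM in CAF medium and 0.25 RPKM in control medium. TNNT1, troponin T of slow skeletal muscle, had 48.5 RPKM in CAF medium and 9.87 RPKM in control medium, 4.92-fold apart (4.43 to 5.48). Both were higher in CAF medium at every other time as well, and TNNI3 was at least 2-fold higher at 5 of those 5. ADSSL1, the muscle form of adenylosuccinate synthase, had 14.8 RPKM in CAF medium and 3.04 RPKM in control medium. CKB, the brain form of creatine kinase, had 22.4 RPKM in CAF medium and 5.27 RPKM in control medium. In the 48 h control library these genes lay between the 24 h levels of both media: 3.81 RPKM for TNNI3, 42 RPKM for TNNT1, 11.3 RPKM for ADSSL1 and 15.4 RPKM for CKB.

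The other genes among the 15 have varied roles. DNAJC15, a co-chaperone of the mitochondrial inner membrane, was the most abundant of them, with 67.4 RPKM in CAF medium and 15.6 RPKM in control medium. SPARC, a secreted protein that binds matrix collagen, had 16.2 RPKM in CAF medium and 3.72 RPKM in control medium, against 18.5 RPKM in control medium at 48 h. IQGAP2, a scaffold protein of the actin skeleton, had 8.22 RPKM in CAF medium and 1.42 RPKM in control medium, against 11.4 RPKM in control medium at 48 h. CA11, a carbonic anhydrase-related protein without the enzyme's activity, had 18.9 RPKM in CAF medium and 2.94 RPKM in control medium. SEPT4, a septin, had 11 RPKM in CAF medium and 1.59 RPKM in control medium. IFITM3, which blocks the entry of viruses, had 5.29 RPKM in CAF medium and 1.01 RPKM in control medium. DDIT4L, an inhibitor of mTOR signalling, had 7.49 RPKM in CAF medium and 1.57 RPKM in control medium. FLJ21408, LPPR3 and LOC728392 complete the 15, with log2 differences of 2.23, 2.14 and 2.05. All 15 were at least 2-fold above the 12 h control, and none was 2-fold above the 48 h control.

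TXNIP also heads a list of MondoA and FOXO targets, genes that respond to glucose metabolites and to loss of insulin signalling. Of 11 expressed members 8 were higher in CAF medium, 3 of them at least 2-fold and none at least 2-fold lower, with a median log2 difference of 0.69 beside 0.01 for all genes. TXNIP, ARRDC4, KLF9, BCL6 and CITED2 reached 5 RPKM only in CAF medium, so their own rise brought them into the count. Without the filter at 5 RPKM the list median was 0.53. PDK4, a kinase that inhibits pyruvate dehydrogenase, had 176 RPKM in CAF medium and 73.9 RPKM in control medium, 2.38-fold apart (2.32 to 2.43). ARRDC4, an arrestin related to TXNIP, had 5.68 RPKM in CAF medium and 2.04 RPKM in control medium. KLF9 and BCL6, transcription factors listed as FOXO targets, had log2 differences of 0.99 and 0.98. ARRDC3, another arrestin of the family, did not share this: it had 21.9 RPKM in CAF medium and 24.9 RPKM in control medium. The list median was 0.70 against the 12 h control and -0.11 against the 48 h control. PDK4 had 202 RPKM in control medium at 48 h, above its 24 h level in CAF medium.

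Genes of sterol and fatty acid synthesis were nearly all higher. Of 25 expressed members 24 were higher in CAF medium, 3 of them at least 2-fold and 10 at least 1.5-fold, with a median of 0.42 on the log2 scale. MVK, LSS and MVD reached 5 RPKM only in CAF medium, so their own rise brought them into the count. The 3 past 2-fold were SCD, MSMO1 and SREBF1. SCD, the desaturase that makes oleate, had 166 RPKM in CAF medium and 73.1 RPKM in control medium. MSMO1, an enzyme of late cholesterol synthesis, had 11.7 RPKM in CAF medium and 5.39 RPKM in control medium. SREBF1, the transcription factor that drives lipid synthesis, had 13.7 RPKM in CAF medium and 6.43 RPKM in control medium. FASN, which makes palmitate, followed with 22.7 RPKM in CAF medium and 11.4 RPKM in control medium. PMVK, a kinase of the mevalonate pathway, was the single lower member, with 17.5 RPKM in CAF medium and 19.3 RPKM in control medium. The list median was 0.63 against the 12 h control and 0.10 against the 48 h control, and SCD had 171 RPKM in control medium at 48 h.

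Acute phase genes, which STAT3 and C/EBP factors drive in the liver, were higher in part. In the STAT3 and acute phase list 13 of 16 expressed members were higher in CAF medium, with 3 at least 2-fold higher and a median of 0.49. Its members PIM1 and SAA4 reached 5 RPKM only in CAF medium. Without that filter the median was 0.26, and with a limit of 10 RPKM it was 0.29. C3, its most abundant member, had 174 RPKM in CAF medium and 171 RPKM in control medium. CP, ceruloplasmin, had 13.2 RPKM in CAF medium and 12.2 RPKM in control medium. The fibrinogen chain genes FGA and FGG had 77.3 and 96.8 RPKM in CAF medium and 31.4 and 38.9 RPKM in control medium. FGB, the remaining chain, had 48.7 RPKM in CAF medium and 25.9 RPKM in control medium. SAA4, a serum amyloid A gene, had 9.17 RPKM in CAF medium and 3.28 RPKM in control medium. Its relatives SAA1 and SAA2 share much of their sequence, and the split of reads between such copies is uncertain. CEBPD and CEBPB, the C/EBP factors themselves, had 102 and 93.9 RPKM in CAF medium and 51.1 and 57.8 RPKM in control medium. SOCS3, the feedback inhibitor that STAT3 induces, had 7.73 RPKM in CAF medium and 8.69 RPKM in control medium. The list median was 0.35 against the 12 h control and -0.05 against the 48 h control.

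Epithelial and mesenchymal genes split without a common direction. CDH1, E-cadherin, had 13.5 RPKM in CAF medium and 4.68 RPKM in control medium, 2.89-fold apart (2.66 to 3.13). EPCAM, another surface protein of epithelia, did not reach 5 RPKM, with 3.17 RPKM in CAF medium and 0.67 RPKM in control medium. CDH1 was lower in CAF medium at 3 h, with 6.4 RPKM in CAF medium and 10.0 RPKM in control medium, and higher at each other time. In control medium CDH1 stood at 6.63 RPKM at 12 h and 12.3 RPKM at 48 h. Of 10 expressed epithelial genes 6 were higher in CAF medium, with CDH1 alone past 2-fold and a median of 0.09. That median was 0.11 against the 12 h control and -0.15 against the 48 h control. CDH1 reached 5 RPKM only in CAF medium, so its own rise brought it into the count. The tight junction genes CLDN1 and TJP1 had log2 differences of -0.42 and -0.34. CLDN2, a claudin that forms ion pores and belongs to no list, had 8.05 RPKM in CAF medium and 2.31 RPKM in control medium. Its 24 h difference of 1.61 lay 1.13 beyond that of any other time. At 72 h CLDN2 was at least 2-fold lower, with 10.1 RPKM in CAF medium and 21.9 RPKM in control medium.

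Among the mesenchymal genes 10 of 23 were higher and 13 lower in CAF medium, with a median of -0.08. At least 2-fold higher were 2 of them, SPARC and MMP2, and 1 was at least 2-fold lower. SPARC and MMP2 reached 5 RPKM only in CAF medium, so their own rise brought them into the count. Against the 12 h and 48 h controls the median was positive, at 0.20 and 0.10. VIM, vimentin, had 481 RPKM in CAF medium and 573 RPKM in control medium. CDH2, N-cadherin, had 67.7 RPKM in CAF medium and 79.3 RPKM in control medium. FN1, fibronectin, had 152 RPKM in CAF medium and 109 RPKM in control medium. None of these 3 passed 1.5-fold. Contractile genes of the list went both ways. TPM1, TAGLN and TPM2 had log2 differences of -0.91, -0.94 and -0.57, with TPM1 at 352 RPKM in CAF medium and 662 RPKM in control medium. CALD1 had -0.08, whereas ACTA2 was higher, with 13.8 RPKM in CAF medium and 8.62 RPKM in control medium. The transcription factors did not move together either: SNAI2 had 7.99 RPKM in CAF medium and 16.9 RPKM in control medium. ZEB1 had 8.98 RPKM in CAF medium and 9.16 RPKM in control medium, and TWIST1 had 12.0 RPKM in CAF medium and 7.86 RPKM in control medium. SNAI2 was lower in CAF medium at 6 of 6 times. It had 11.5 and 9.53 RPKM in control medium at 12 and 48 h, so its 24 h level in CAF medium was also below these, by less than 2-fold.

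Genes that build or cut the matrix differed in both directions. PLAU, the urokinase that activates plasminogen, had 39.2 RPKM in CAF medium and 43.0 RPKM in control medium. The proteases MMP2 and MMP15 had 6.61 and 6.72 RPKM in CAF medium and 2.51 and 2.75 RPKM in control medium, so both reached 5 RPKM only in CAF medium. Of 11 expressed collagen genes 10 were higher in CAF medium, beside 51.5% of all genes, with a median of 0.33. That median was 0.45 against the 12 h control, 0.13 against the 48 h control and 0.14 without the filter at 5 RPKM. COL6A2 was the collagen past 2-fold, with 13.0 RPKM in CAF medium and 5.37 RPKM in control medium.

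DNA replication genes were lower in CAF medium almost without exception. Of 34 members 33 were lower, 24 of them at least 1.5-fold and 4 at least 2-fold, and the median was -0.73 beside 0.01 for all genes. GINS3, POLE and CDT1 reached 5 RPKM only in control medium, which brought them into the count. RRM2, the small subunit of the reductase that makes deoxynucleotides, had 16.7 RPKM in CAF medium and 70.4 RPKM in control medium, a ratio of 0.238 (0.226 to 0.250). MCM10 and CLSPN, which act at the replication fork, had 5.64 and 6.46 RPKM in CAF medium and 15 and 16.9 RPKM in control medium. CDC45, a part of the replicative helicase, had 9.72 RPKM in CAF medium and 20.2 RPKM in control medium. POLD1, the catalytic subunit of polymerase delta, was the exception, with 8.13 RPKM in CAF medium and 7.95 RPKM in control medium. ORC6, a subunit of the origin recognition complex outside the list, had 8.34 RPKM in CAF medium and 18.6 RPKM in control medium.

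Mitosis genes were shifted by a similar amount. All 39 expressed members of the list were lower in CAF medium, 28 of them at least 1.5-fold and 2 at least 2-fold, with a median of -0.68. MKI67, the marker of dividing cells, had 29.6 RPKM in CAF medium and 57.2 RPKM in control medium. NDC80 and CDCA8, proteins of the kinetochore and of the chromosomal passenger complex, had 9.31 and 9.87 RPKM in CAF medium and 20.7 and 21.1 RPKM in control medium. PTTG1 and CKS2 differed least, with log2 differences of -0.12 and -0.03. MYBL2 and FOXM1, the factors that switch on the mitotic genes, had 22.8 and 8.09 RPKM in CAF medium and 49.1 and 15.9 RPKM in control medium. CDKN1B, an inhibitor of cyclin-dependent kinases, had 18.9 RPKM in CAF medium and 14.3 RPKM in control medium. In RNA of whole cultures, fewer cells in a phase of the cycle and less RNA per cell cannot be told apart.

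The same lists had other medians against other control libraries. Replication genes had -0.41 against the 12 h control and -0.09 against the 48 h control, and mitosis genes -0.37 against the 12 h control and -0.14 against the 48 h control. RRM2 had 18.5 RPKM and MKI67 had 32.4 RPKM in control medium at 48 h. Across the times of the study the list medians of CAF minus control medium were 0.09, -0.36, -0.20, -0.73, -1.30 and -0.61 for replication at 3, 6, 12, 24, 48 and 72 h. For mitosis they were 0.25, -0.08, 0.22, -0.68, -1.11 and -1.19. Both lists lay lower at each of the 3 times from 24 h on than at any earlier time.

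Promoters of these lists are shown as background, as a part of them carry the elements known for each phase. The lists were put together by function, so their motif shares follow from that choice of genes. They are no result of the 24 h comparison, and a link to the 24 h differences was not tested. The RefSeq sequences of build GRCh38.p14 were read over the 250 bases before each start, on the strand of the gene. They matched 6661 of the 8153 genes. Of 30 replication genes with a sequence, 12 (40%) held the E2F motif TTTCCCGC or TTTGGCGC on either strand, beside 3.42% of the 6661 expressed genes and 1.93% of all 35116 promoters of the table. Of 34 mitosis genes, 19 (55.9%) held the CHR motif TTTGAA, beside 8.14% of the expressed genes and 13.3% of all promoters. The CCAAT motif was held by 28 of the 34 (82.4%), beside 35.8% of the expressed genes and 32% of all promoters. It was also held by 17 of the 30 replication genes (56.7%), in whose sequences below it is not marked. A match of letters is a description and not a bound site. In the replication genes UHRF1, which recruits the maintenance DNA methyltransferase, and GINS2, a helicase subunit, capitals mark the E2F motif on the opposite strand, starting at -14 and -31 from the start.
UHRF1 (chr19:4909251-4909500, plus strand): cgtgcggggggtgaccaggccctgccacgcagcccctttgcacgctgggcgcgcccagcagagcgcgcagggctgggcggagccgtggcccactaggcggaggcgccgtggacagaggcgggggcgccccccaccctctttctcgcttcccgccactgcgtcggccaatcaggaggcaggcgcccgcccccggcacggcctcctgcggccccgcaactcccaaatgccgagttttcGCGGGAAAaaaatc
GINS2 (chr16:85688955-85689204, minus strand): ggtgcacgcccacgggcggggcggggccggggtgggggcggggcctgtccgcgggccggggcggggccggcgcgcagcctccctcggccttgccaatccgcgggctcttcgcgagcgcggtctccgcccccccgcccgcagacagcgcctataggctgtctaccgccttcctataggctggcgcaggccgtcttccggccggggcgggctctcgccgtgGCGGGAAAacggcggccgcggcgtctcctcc
In the mitosis genes CDCA8 and MKI67, capitals mark TTTGAA and the CCAAT motif on the opposite strand (ATTGG). A CHR and a CCAAT motif overlap near the start of both genes, with TTTGAA starting at -23 in CDCA8 and at -47 and -29 in MKI67.
CDCA8 (chr1:37692266-37692515, plus strand): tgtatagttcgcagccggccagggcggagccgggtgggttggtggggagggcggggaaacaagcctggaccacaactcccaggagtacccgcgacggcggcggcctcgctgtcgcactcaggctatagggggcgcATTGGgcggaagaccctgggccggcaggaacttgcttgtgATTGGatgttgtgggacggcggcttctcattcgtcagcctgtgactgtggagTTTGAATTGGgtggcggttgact
MKI67 (chr10:128126424-128126673, minus strand): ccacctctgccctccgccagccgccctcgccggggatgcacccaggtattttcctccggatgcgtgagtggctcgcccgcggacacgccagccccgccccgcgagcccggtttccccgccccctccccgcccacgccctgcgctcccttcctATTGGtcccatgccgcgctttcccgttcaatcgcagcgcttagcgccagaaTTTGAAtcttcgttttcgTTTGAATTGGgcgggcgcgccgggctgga
These genes had log2 differences of -0.90 for UHRF1, -0.89 for GINS2, -1.06 for CDCA8 and -0.94 for MKI67.

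**Figure D3:**
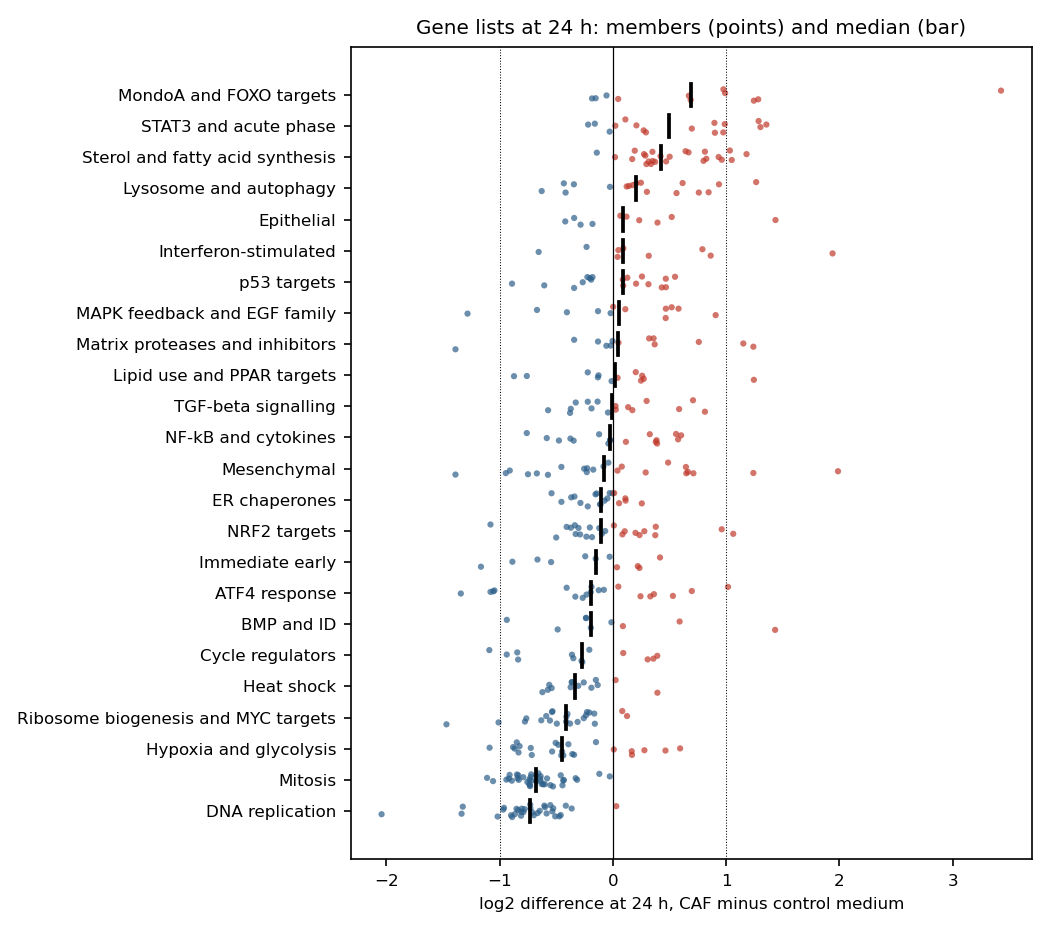
Log2 difference at 24 h, CAF minus control medium (horizontal axis), of each expressed member (points, red above 0 and blue below) of the 24 named lists with at least 9 members (vertical axis), with the list median as a black bar. The medians run from 0.69 for MondoA and FOXO targets at the top to -0.73 for DNA replication at the bottom.

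Genes of growth and biosynthesis were lower too. In the list of ribosome biogenesis and MYC targets 21 of 23 were lower in CAF medium, 2 of them at least 2-fold, with a median of -0.41. The median was -0.36 against the 12 h control and -0.13 against the 48 h control. ODC1, which starts polyamine synthesis, had 32.1 RPKM in CAF medium and 89.8 RPKM in control medium, a ratio of 0.358 (0.342 to 0.374). It was lower in CAF medium at 6 of 6 times and had 45 RPKM in control medium at 48 h. TFRC, the transferrin receptor, had 29.0 RPKM in CAF medium and 58.9 RPKM in control medium. SRM, which makes spermidine from the product of ODC1, had 20.6 RPKM in CAF medium and 35.6 RPKM in control medium. By contrast, the genes of the ribosomal proteins were slightly higher, 69 of 76 of them, with a median of 0.22 and none past 2-fold. Their median was -0.03 against the 12 h control and -0.01 against the 48 h control.

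Glycolysis and hypoxia genes were lower in 18 of 24 cases, with a median of -0.45. CA9, the carbonic anhydrase that HIF-1 induces, was the member past 2-fold, with 3.49 RPKM in CAF medium and 7.98 RPKM in control medium. It reached 5 RPKM only in control medium, which brought it into the count. PGK1 and GAPDH, enzymes of glycolysis, had 123 and 1249 RPKM in CAF medium and 225 and 1703 RPKM in control medium. LDHA, which turns pyruvate into lactate, had 461 RPKM in CAF medium and 821 RPKM in control medium. SLC2A1, the main glucose carrier, had 15.6 RPKM in CAF medium and 28.4 RPKM in control medium, whereas its relative SLC2A3 had 11.4 RPKM in CAF medium and 7.36 RPKM in control medium. DDIT4, an mTOR inhibitor induced by hypoxia and other stress, had 215 RPKM in CAF medium and 156 RPKM in control medium. The list median was -0.37 against the 12 h control and -0.14 against the 48 h control. Nuclear genes of the respiratory chain were higher in 61 of 78 cases, with a median of 0.15 and none past 2-fold. Their median was 0.13 against the 12 h control and 0.0017 against the 48 h control.

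Amino acid and stress genes differed in part. Of 19 expressed ATF4 response genes 4 were at least 2-fold lower in CAF medium and 1 at least 2-fold higher, with a median of -0.19. The median turned to 0.23 against the 12 h control and was -0.45 against the 48 h control. SLC7A5 and SLC7A11, carriers of large neutral amino acids and of cystine, had 43.0 and 4.51 RPKM in CAF medium and 89.9 and 10.1 RPKM in control medium. ATF5, a factor of the same response, had 5.45 RPKM in CAF medium and 14.6 RPKM in control medium. CBS, which starts the path from homocysteine to cysteine, had 8.42 RPKM in CAF medium and 3.91 RPKM in control medium. SLC7A11 reached 5 RPKM only in control medium and CBS only in CAF medium. Heat shock genes were lower in 12 of 14 cases, with a median of -0.33, led by HSPA8 with 631 RPKM in CAF medium and 970 RPKM in control medium. Their median was -0.25 against the 12 h control and turned to 0.04 against the 48 h control. MT2A, a metallothionein that binds zinc and copper, had 749 RPKM in CAF medium and 1521 RPKM in control medium, while its relative MT1X had 200 RPKM in CAF medium and 135 RPKM in control medium. Metallothionein copies are near-identical, so the split of their reads is uncertain.

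The remaining genes named among the 15 with the largest negative differences have varied roles. TUBA1B, an alpha-tubulin, had 43.8 RPKM in CAF medium and 116 RPKM in control medium, and tubulin genes share stretches of sequence that make their reads uncertain. NEXN, an actin-binding protein, had 9.66 RPKM in CAF medium and 25.5 RPKM in control medium. EREG, an EGF receptor ligand, had 3.2 RPKM in CAF medium and 8.5 RPKM in control medium. BC005927, ERCC6L, FAM111B, SKA3 and SAMD15 had log2 differences of -1.47, -1.40, -1.40, -1.30 and -1.23. Of these, ERCC6L and SKA3 act in mitosis, in the parting of chromosomes and at the kinetochore. None of those 15 genes was 2-fold below the 48 h control, and 8 were 2-fold below the 12 h control.

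The further signalling lists given here had medians between -0.19 and 0.09, beside 0.01 for all genes. The lists of STAT3 and acute phase genes and of MondoA and FOXO targets, given above, had 0.49 and 0.69. Immediate early genes were higher in 4 of 11 cases with a median of -0.15, and FOSL1 alone was past 2-fold, on the lower side. FOSL1 and JUN, which form the AP-1 factor, had 16.0 and 32.1 RPKM in CAF medium and 36.4 and 59.7 RPKM in control medium. NF-kB and cytokine genes were higher in 8 of 17 cases with a median of -0.02, and none passed 2-fold. Within the list CXCL5, a chemokine for neutrophils, had 501 RPKM in CAF medium and 848 RPKM in control medium. IL8, another such chemokine, had 79.1 RPKM in CAF medium and 53.6 RPKM in control medium. The NF-kB median was -1.07, -0.67 and -1.06 at 3, 6 and 12 h and 0.39 at 48 h. TGF-beta genes had 8 of 16 higher and a median of -0.01, with the ligand TGFB1 at 93.8 RPKM in CAF medium and 53.2 RPKM in control medium. SMAD7, the feedback inhibitor of that pathway, had 7.85 RPKM in CAF medium and 10.3 RPKM in control medium. In the BMP list 3 of 9 were higher, with a median of -0.19, which turned to 0.45 against the 12 h control and was -0.18 against the 48 h control. The ligand BMP4 had 20.3 RPKM in CAF medium and 7.2 RPKM in control medium. Of the pathway's targets, ID1 had 77.0 RPKM in CAF medium and 77.7 RPKM in control medium. ID2 and ID3 had 8.1 and 28.2 RPKM in CAF medium and 16.0 and 39.8 RPKM in control medium. The p53 targets had 10 of 18 higher, none past 2-fold, and a median of 0.09. Interferon-stimulated genes had 7 of 9 higher and a median of 0.09, with IFITM3 past 2-fold. In that list IFITM3, IFI6 and STAT2 reached 5 RPKM only in CAF medium, and OAS3 only in control medium. Of the MAPK feedback and EGF family list 7 of 12 were higher, with a median of 0.06 and EREG past 2-fold on the lower side. EREG reached 5 RPKM only in control medium, and ETV4 of the same list only in CAF medium.

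The 24 h differences were partly shared with other times. Of the 175 higher genes, 134, 172, 169, 142 and 130 were also higher in CAF medium at 3, 6, 12, 48 and 72 h. Of the 64 lower genes, 45, 61, 53, 53 and 57 were also lower. Of all expressed genes 58.5, 51.9, 49.3, 44.5 and 41.7% were higher in CAF medium at those times, and 41.3, 48.0, 50.6, 55.4 and 58.1% lower. Shared 2-fold calls were fewer. Those shared with 12 h were 57 genes, 32.6% of the 175 and 35.8% of the 159 genes called at 12 h (2.09% of those expressed). With 48 h they were 33 genes, 18.9% of the 175 and 16.9% of the 195 called at 48 h (2.42%). At 3, 6 and 72 h they were 12, 44 and 4 genes, or 6.86, 25.1 and 2.29% of the 175. These made up 21.1, 38.9 and 25% of the 57, 113 and 16 genes called at those times (0.732, 1.46 and 0.204% of those expressed). Of the lower genes, 32 were called at 48 h too, 50% of the 64 and 12.8% of the 250 called at that time (3.11%). At 3, 6, 12 and 72 h they were 10, 16, 16 and 12 genes, or 15.6, 25, 25 and 18.8% of the 64. These made up 12.5, 22.9, 14.8 and 21.1% of the 80, 70, 108 and 57 genes called lower at those times (1.03, 0.902, 1.42 and 0.727%). The same direction at 5 of the 5 other times was seen for 85 of the 175 and 25 of the 64. Of all 8153 genes 8.49% were higher and 9.08% lower at each of those 5 times. Of the calls, 61 of the 175 and 8 of the 64 were 2-fold in that direction at no other time, as were 95.4% of all genes for the higher and 94.2% for the lower direction.

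Genes whose 24 h difference lay farthest beyond that of any other time included CLDN2, TNNI3, ADSSL1 and DDIT4L on the higher side. On the lower side they were RRM2, KCNMA1, ORC6, TUBB3 and SBDSP1. KCNMA1, a calcium-activated potassium channel, had 4.35 RPKM in CAF medium and 9.66 RPKM in control medium. TUBB3, a beta-tubulin typical of neurons, had 9.88 RPKM in CAF medium and 22.7 RPKM in control medium.

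**Figure D4:**
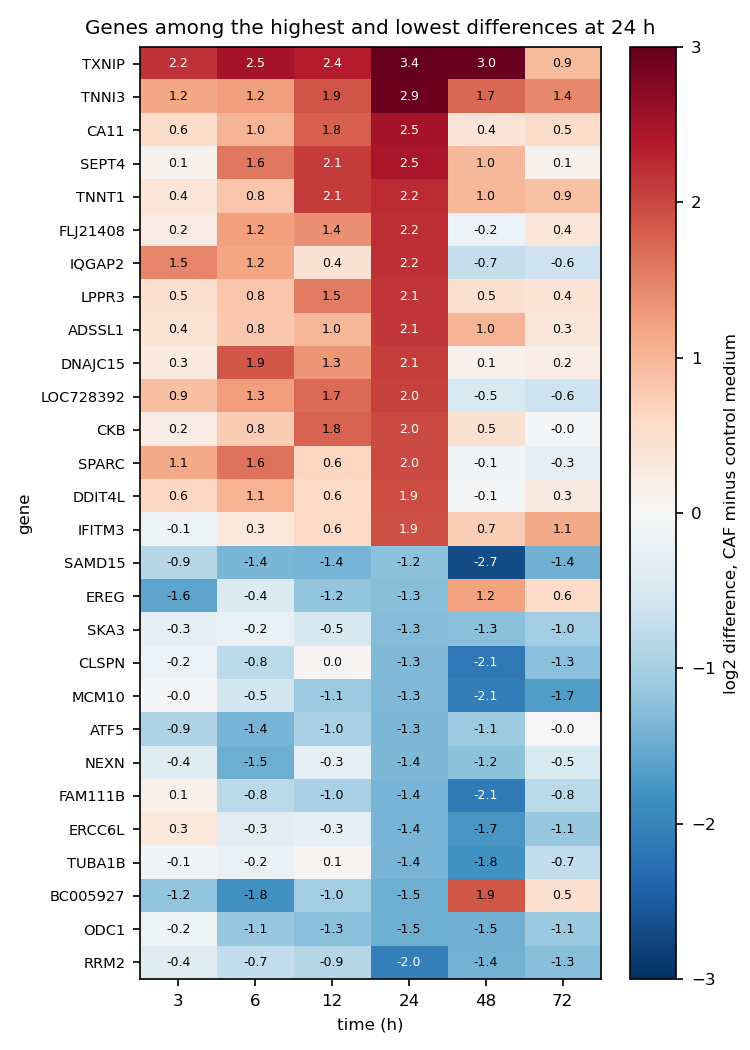
Log2 difference of CAF minus control medium (colour and printed value) at 3, 6, 12, 24, 48 and 72 h (horizontal axis) for the 15 genes with the highest difference at 24 h and 13 of the 15 with the lowest (vertical axis). TXNIP and TNNI3 are red at 6 of 6 times, and EREG and BC005927 turn from blue at 24 h to red at 48 h.

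Between neighbouring control libraries, 26 genes (0.337%) were at least 2-fold apart from 12 to 24 h and 171 genes (2.13%) from 24 to 48 h. The media at 24 h were separated by 239 genes (2.93%). In CAF medium 355 genes (4.43%) were apart from 12 to 24 h and 328 genes (4.04%) from 24 to 48 h. The plot of levels gives single genes. SCD had 66.7, 166 and 187 RPKM at 12, 24 and 48 h in CAF medium, and 58.0, 73.1 and 171 RPKM at those times in control medium. TUBA1B had 125, 43.8 and 18.4 RPKM at 12, 24 and 48 h in CAF medium, and 118, 116 and 66.5 RPKM in control medium.

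**Figure D5:**
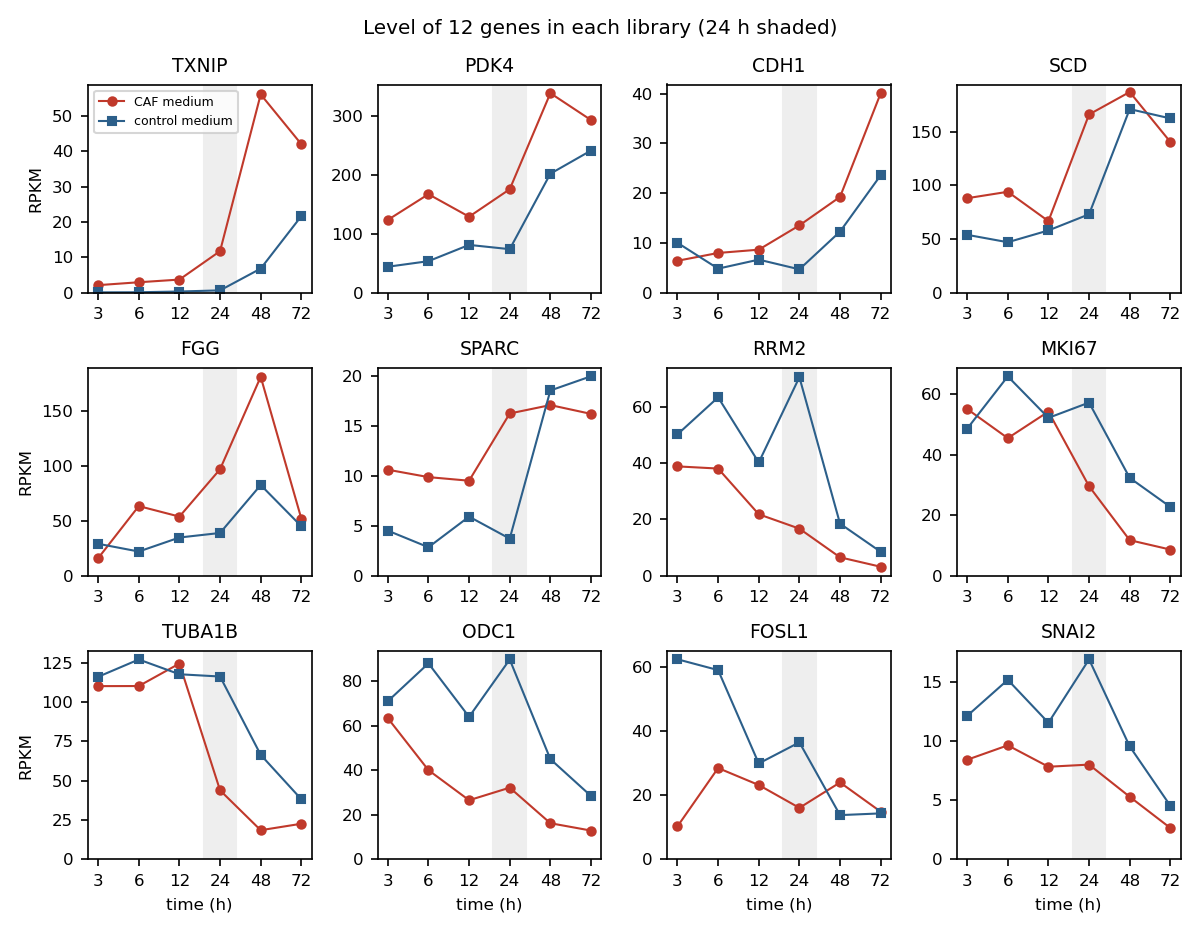
Level in RPKM (vertical axis, from 0) of 12 genes in each library at 3, 6, 12, 24, 48 and 72 h (horizontal axis, even steps), CAF medium in red circles and control medium in blue squares, with 24 h shaded. At 24 h TXNIP, PDK4, CDH1, SCD, FGG and SPARC lie higher in CAF medium and RRM2, MKI67, TUBA1B, ODC1, FOSL1 and SNAI2 lower.

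The largest differences in RPKM, rather than in ratio, were in abundant transcripts. Of the 10 largest, 4 were transcripts of the mitochondrial chromosome, none past 1.5-fold. MALAT1, a nuclear non-coding RNA, had 2313 RPKM in CAF medium and 1386 RPKM in control medium, 1.67-fold apart. ALDH1A1, an aldehyde dehydrogenase abundant in this line, had 4251 RPKM in CAF medium and 3701 RPKM in control medium. Among long intergenic RNAs LINC00263 had 17.3 RPKM in CAF medium and 5.06 RPKM in control medium. Of 302 such RNAs 18 were expressed, and 3 of these were at least 2-fold higher, beside 2.15% of all expressed genes. Their median log2 difference was 0.25, and 0.46 and 0.13 against the 12 h and 48 h controls. Of 107 zinc finger genes 50 were higher and 57 lower, with ZNF467 alone past 2-fold on the log2(RPKM + 0.5) scale at 8.55 RPKM in CAF medium and 2.18 RPKM in control medium. Gene models under 400 bases accounted for 2 of the 175 and 4 of the 64. Among them MIR21, the stretch of the miR-21 precursor, had 25 reads in CAF medium and 2 reads in control medium.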

How the data were processed

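Messenger RNA of A549 cells was measured in 12 libraries, 1 per medium and time, and the 2 libraries of 24 h were compared. The values are RPKM with the length of each gene model, as deposited by the authors to 2 decimals. TopHat2, edgeR and build hg19 are named per the submitters' processing notes. How reads were counted, whether strand was used, which annotation served and how the 2 replicates named in the design text were handled is not given in the sources used here, and reads of overlapping and near-identical genes cannot be told apart. Each value column was tied to its sample by the code in that sample's description, and the small RNA table was not used.

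Differences were computed in Python 3.11.15 with pandas 2.3.3 as log2(RPKM + 0.5), which understates the change of low genes, for genes with at least 5 RPKM in either 24 h library. A gene counted as higher or lower from 2-fold on. In every list, a member that reached 5 RPKM in 1 medium only entered the count through its level in that medium. No test was made with 1 library per medium. Depth was recovered from gene models under 400 bases, in which the 68 to 110 values examined in each library came out as whole reads in 100% of cases, with a tolerance of 0.1 read. Exact binomial 95% intervals of the plain RPKM ratio rest on these reads and cover counting error only. The steps were tested on simulated data.

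The members, the 32 lists by name and the 7 lists by symbol or chromosome were chosen with earlier results of these data known. Named genes are the 15 highest and 15 lowest differences, the 5 per direction farthest beyond the other times, the 10 largest differences in RPKM, the 3 highest and 3 lowest of each list (gene models of at least 400 bases), and 7 transition markers. A few genes that these rules pick are not reported here. Further list members, the promoters shown and MIR21 were picked after their values were seen. Symbols were matched through a RefSeq table, and genes without a match were not analysed here. Promoters were matched for fewer than 80% of the genes past 2-fold, so no motif share is given for those sets. Alternatives were other pseudocounts, scalings, filters and gene models, and, added after the data were seen, a 1.5-fold limit and the control libraries of 12 and 48 h.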

Additional observations from a re-analysis of the deposited data

Results flagged for a closer look

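For EREG and BC005927 the difference at 24 h and that at 48 h passed 2-fold in opposite directions, and this was not tested, as each medium and time has 1 library. EREG, the EGF receptor ligand, had -1.28 at 24 h and 1.21 at 48 h, with 10.1 RPKM in CAF medium and 4.08 RPKM in control medium at 48 h. BC005927, a transcript with no role given here, had -1.47 at 24 h and 1.85 at 48 h, with 33.0 RPKM in CAF medium and 8.75 RPKM in control medium at 48 h. In both genes the level in CAF medium at 24 h was nearer to that of control medium at 48 h than to that of control medium at 24 h.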

How the results depend on the processing

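No paired analysis was possible because each medium had 1 library at 24 h and the labels give no replicate numbers, and for the same reason no library could be left out. The 2-fold counts stayed within 1.5 times of 175 and 64 under 2 other pseudocounts, 3 scalings and without short gene models. With no filter they were 539 higher and 109 lower genes, from 10 RPKM on 85 higher genes, from an average of 5 RPKM on 116 higher genes, and at 1.5-fold 647 higher and 394 lower. Without the filter list medians were 0.26 for STAT3 and acute phase, 0.53 for MondoA and FOXO targets and 0.14 for collagens, and immediate early genes (0.024) and metallothioneins (0.53) changed sign. At 10 RPKM STAT3 and acute phase had 0.29 and MondoA and FOXO targets 0.96.

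Against the 12 h control 313 genes were higher and the median of all genes was 0.18. List medians were then -0.41 for replication, -0.37 for mitosis, 0.35 for STAT3 and acute phase, 0.63 for sterol and fatty acid synthesis and 0.45 for collagens. Cycle regulators (0.12), BMP and ID (0.45), immediate early (0.025), NRF2 (0.019), ATF4 (0.23), metallothioneins (0.0053) and ribosomal proteins (-0.031) changed sign.

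Against the 48 h control 5 genes were higher and 7 lower. List medians were -0.092 for replication, -0.14 for mitosis, -0.14 for hypoxia and glycolysis, 0.10 for sterol and fatty acid synthesis, -0.13 for ribosome biogenesis and 0.13 for collagens. Those of STAT3 and acute phase (-0.053), MondoA and FOXO targets (-0.11), heat shock (0.037), lysosome (-0.061) and ribosomal proteins (-0.014) changed sign. Of the named genes past 2-fold, CA11 (-0.16), IQGAP2 (-0.45), SPARC (-0.19), SAA4 (-0.44), MMP2 (-0.11), PDK4 (-0.20), CBS (-0.45), SREBF1 (-0.17) and SCD (-0.043) turned negative. BC005927 (0.62), FAM111B (0.22), KCNMA1 (0.048) and FOSL1 (0.21) turned positive. The cause was not tested. The counting interval excluded equal levels for 174 of the 175 and 64 of the 64 genes. They were picked by size from the same reads, and the spread between cultures is unknown.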

Other observations

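The genes that separated CAF medium at 24 h from control medium at 48 h were few, and of the 12 past 2-fold 7 had gene models under 400 bases. The others were chosen after their values were seen. ID1 and ID2, which block helix-loop-helix transcription factors and respond to BMP signalling, had 77.0 and 8.1 RPKM in CAF medium at 24 h, against 164 and 23.7 RPKM in control medium at 48 h. TUBA1A, an alpha-tubulin, had 18.7 RPKM in CAF medium at 24 h, against 42.6 RPKM in control medium at 48 h. ASNS, asparagine synthetase, had 13.3 RPKM in CAF medium at 24 h, against 27.3 RPKM in control medium at 48 h. ACTN1-AS1 had 5.76 RPKM in CAF medium at 24 h, against 2.59 RPKM in control medium at 48 h, and no role is given here for it.

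The share of genes at least 2-fold higher at 24 h differed between chromosomes, which was not tested. Chromosome 19 held 25 of them among 509 expressed genes (4.91%), beside 2.15% of all expressed genes, with a median log2 difference of 0.14. The share was 5.33% on chromosome 21 (4 of 75), 4.61% on chromosome 14 and 3.71% on chromosome 16. It was 0.555% on chromosome 2, and chromosome 6 held 0 among 331. TNNI3, TNNT1, CA11 and LPPR3 lie on chromosome 19. Lysosome and autophagy genes were higher in CAF medium in 12 of 17 cases, with a median of 0.21 on the log2 scale, which was 0.52 against the 12 h control and -0.06 against the 48 h control. WIPI1, which acts early in autophagosome formation, had 31.1 RPKM in CAF medium and 12.6 RPKM in control medium. HES7, a repressor of the HES family, had 5.66 RPKM in CAF medium and 1.15 RPKM in control medium, 4.92-fold apart (3.79 to 6.43). Circadian clock genes showed no member past 1.5-fold among 6 on the log2(RPKM + 0.5) scale. PER1, the highest, had 5.14 RPKM in CAF medium and 3.32 RPKM in control medium. Of 24 NRF2 targets 14 were lower, with a median of -0.11, and SLC7A11 was at least 2-fold lower. AKR1C1, the highest member of that list and an enzyme that reduces ketones, had 33.3 RPKM in CAF medium and 15.7 RPKM in control medium, and its near-identical relatives make its reads uncertain.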
